A study of Mus musculus with 36 samples.

Results

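Growth hormone signalling and its targets were followed in the livers of 36 female mice through 10 genes. They are the receptor gene Ghr, the transcription factor gene Stat5b, the feedback inhibitor genes Socs2 and Cish, the secreted growth factor axis genes Igf1 and Igfals, and the sex-biased liver targets Hsd3b5, Elovl3, Cyp17a1 and Hao2. Every probe set whose platform symbol is one of these names was taken, which gave 21 probe sets of 45101 and 10 genes of 18193 symbols. Where a gene had several, the one read highest on average was used for it. All 10 genes passed the filter on low values, which lay at a mean signal of 61.7 and left 13188 genes to be tested.

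The arrays came from a study of 5 mouse lines with neural tube defects, with 4 mice per group, and 1 array per mouse; the mice were 6 to 8 weeks old and had fasted for 4 to 5 hours. Of the lines, 4 were heterozygotes for Pax3Sp2H (the Pax3 group), Lrp6Cd (Cd-Het), Apobtm1Unc (Apob) and Vangl2Lp (Lp-Het). The ct group came from a random bred closed colony whose members were all taken to be ct/ct, so that its label is a homozygote where the series design speaks of heterozygotes. The controls were C57BL/6J wild type (B6), wild types of the Lrp6Cd strain (Cd-WT) and of the Vangl2Lp strain (Lp-WT), and CBA/CaJ wild type (CBA) for ct. The B6 arrays served both the Pax3 and the Apob line, so the differences of those lines from B6 share their control arrays. Per the labels, Pax3 and Cd respond to dietary FA, and Apob, ct and Lp are resistant. All mice were females, so these data hold no male reference for the sex-biased genes.

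Growth hormone binds its receptor on hepatocytes and activates JAK2, which phosphorylates STAT5B. STAT5B then drives Igf1 and Igfals, whose products circulate together, and Socs2 and Cish, whose products damp the receptor. The pituitary releases the hormone in pulses in males and more steadily in females, and this pattern sets the sex bias of many mouse liver genes: Hsd3b5 and Elovl3 are known to be male-biased, Cyp17a1 and Hao2 female-biased.

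STAT5 proteins bind the palindrome TTCNNNGAA, which reads the same on both strands. The promoter windows of RefSeq (GRCm38.p6; 250 bases before and 50 bases after a start) held it in 8.3% of 32851 windows, and 0.457% held 2 or more copies. Of the 10 genes, 7 had a window, 11 windows in all, and 2 genes, Cish and Igfals, held the palindrome. These 2 windows and that of Hsd3b5, the most variable of the 10 genes and one without the palindrome in its window, show what such a stretch looks like, with each match in capitals. In Cish both copies lie at and just after the start, at window positions 251 and 262. In Igfals the copy shown lies 236 bases before the start site, and a further window of that gene holds a copy 58 bases before its own start. A match is a description of letters, and the absence of one covers this window alone.
Cish, chr9:107296409-107296688, + strand: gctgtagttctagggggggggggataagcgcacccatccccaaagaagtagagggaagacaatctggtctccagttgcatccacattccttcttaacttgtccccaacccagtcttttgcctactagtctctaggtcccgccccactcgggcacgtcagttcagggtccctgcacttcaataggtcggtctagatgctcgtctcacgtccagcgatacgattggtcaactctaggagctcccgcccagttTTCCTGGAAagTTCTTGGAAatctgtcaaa
Igfals, chr17:24877594-24877843, + strand: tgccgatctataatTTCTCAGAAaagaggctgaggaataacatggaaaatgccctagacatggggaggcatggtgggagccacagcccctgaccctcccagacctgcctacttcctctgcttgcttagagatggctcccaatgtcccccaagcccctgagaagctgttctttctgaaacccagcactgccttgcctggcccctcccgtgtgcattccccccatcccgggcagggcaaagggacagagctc
Hsd3b5, chr3:98645535-98645784, - strand: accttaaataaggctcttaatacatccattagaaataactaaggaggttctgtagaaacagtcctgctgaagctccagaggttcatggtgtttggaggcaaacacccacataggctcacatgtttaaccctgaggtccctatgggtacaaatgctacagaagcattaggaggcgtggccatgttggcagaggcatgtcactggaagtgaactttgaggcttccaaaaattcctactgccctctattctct

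The liver identity of the samples was plain from its markers. Of 7 hepatocyte markers, 6 were tested and each of these stayed above the filter on all arrays, with Alb at a median signal of 46970. The mutated genes gave a check of the labels in the Apob line alone. Apob signals of 2654 to 12260 in the Apob group lay below all 4 B6 signals of 17300 to 27270 (log2 difference -1.82 ± 0.422 SE, limma adjusted p 0.0333). Pax3, Lrp6 and Vangl2 did not pass the same test in their lines (limma adjusted p 0.999, 1 and 0.861), and Grhl3, the gene mutated in curly tail, was under the filter. RNA quality set 2 arrays apart: the GAPDH 3′/5′ ratio ran from 0.729 to 0.956 on 34 arrays and was 52.5 on CBA array 4 and 1.72 on Ct array 3. Values without these 2 arrays are given beside the results that rest on them. In whole liver RNA, fewer cells of a type and less RNA per cell cannot be told apart.

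With each of the 5 lines set against its own control, 1 of the 10 genes passed the threshold in 1 line. Cyp17a1 was higher in Ct than in CBA, a call that was lost without CBA array 4 and Ct array 3. The direct comparison of Apob with Pax3 had 2, the male-biased Hsd3b5 and Elovl3, both higher in Apob. The receptor, transducer, feedback and growth factor genes passed in no comparison of the 36 arrays. Between the control stocks, Cyp17a1 and Hsd3b5 differed. A log2 difference is on the scale of log2(signal + 23.1) and is given ± its standard error from limma, with a Benjamini-Hochberg adjusted p over the 13188 genes, called below 0.05. The plot of differences sets the 6 comparisons side by side.

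**Figure D1:**
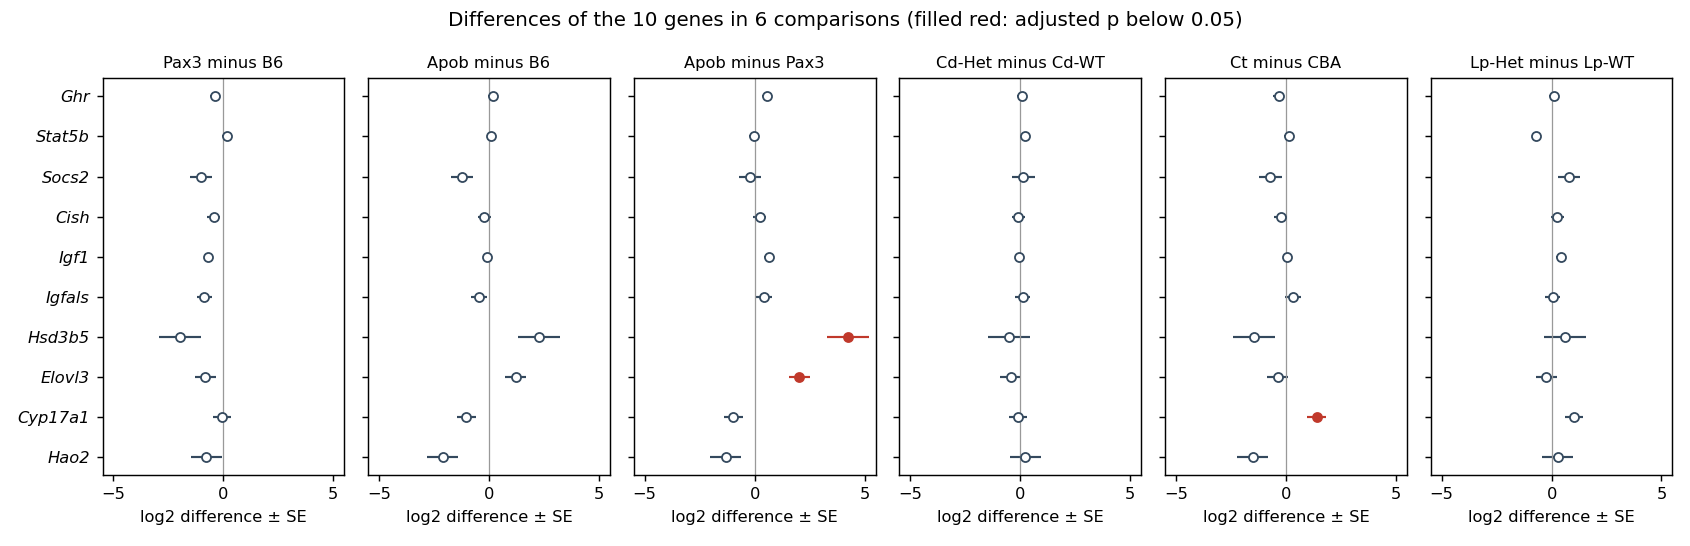
Log2 difference ± SE (x axis) of the 10 genes (rows) in 6 comparisons (panels) from the limma fit to 36 arrays. Filled red points have an adjusted p below 0.05: Hsd3b5 (4.25) and Elovl3 (2.03) in Apob minus Pax3, and Cyp17a1 (1.40) in Ct minus CBA.

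Ghr, which encodes the receptor, was read at a high level, with signals from 6904 to 50600 and a median of 17170. On the B6 arrays it read 15380, 14860, 15360 and 15190. On the Pax3 arrays it read 12940, 14110, 6904 and 14290. The Apob signals were 17990, 17350, 19450 and 14230. On this probe set all Pax3 signals were below all B6 signals, and Pax3 array 3 was far the lowest of the series. Apob overlapped Pax3 through its own array 4. On the other Ghr probe sets Pax3 and B6 overlapped, with differences of -0.45 ± 0.253 and -0.246 ± 0.363. Ghr differed by -0.39 ± 0.234 in Pax3 minus B6 (limma adjusted p 0.999) and by 0.56 ± 0.234 in Apob minus Pax3 (limma adjusted p 0.276). The other Ghr probe sets gave 0.84 ± 0.253 and 1.27 ± 0.363 for the latter, both also higher in Apob. The first difference was -0.14 without Pax3 array 3, and the second was 0.26 ± 0.247 without Pax3 array 3 and Apob array 3 (limma adjusted p 0.867). CBA array 4 and Ct array 3 belong to neither Apob nor Pax3, so leaving them out could not move these differences and changed the pooled error alone. The SE became 0.141, and 0.56 then passed with a limma adjusted p of 0.0201. That error is pooled over all groups, while the log2 SD of Ghr was 0.501 in Pax3, 0.192 in Apob and 0.0227 in B6. The pass thus drew on the smaller spread of other groups. In the Cd, Ct and Lp lines the Ghr difference ran from -0.33 to 0.12 and did not pass. The -0.33 was that of Ct, which was 0.18 without CBA array 4 and Ct array 3. In Apob minus B6 the probe set that stands for Ghr gave 0.17 ± 0.234, and the others gave 0.39 ± 0.253 and 1.03 ± 0.363.

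CBA array 4, the array with the high 3′/5′ ratio, read 50600 for Ghr against 15010 to 16720 on the other CBA arrays. The same array was the farthest from its group for 4 of the 10 genes, Ghr, Socs2, Igfals and Stat5b. On the probe set that stands for each gene it was high for Ghr and Socs2, and low for Igfals and Stat5b. Other probe sets did not all share these directions. For Ghr they read 21640 and 781.6, against 12970 to 15820 and 1236 to 1698 on the other CBA arrays. A Socs2 one read 960.8, against 1042 to 1533, and another 180.8, against 53 to 103. The second Stat5b one read 367.1, against 276.1 to 359.1.

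Stat5b, which encodes the signal transducer of the receptor, had differences from control of 0.11 to 0.20 in the Pax3, Apob, Cd and Ct lines, although that of Ct was -0.11 without CBA array 4 and Ct array 3. Its second probe set gave 0.55 ± 0.231 in Apob minus B6, where the one that stands for the gene gave 0.11, and -0.044 to 0.18 in the other 3 lines. In the Lp line it was lower: the Lp-Het signals were 818.8, 709.5, 757.8 and 509.8, and the Lp-WT signals were 814, 1292, 1552 and 990.7. The groups overlapped by 1 array. The difference of -0.69 ± 0.212 had an unadjusted p of 0.00246 and a limma adjusted p of 0.372, so it did not pass. The second Stat5b probe set gave -0.31 ± 0.231 in Lp.

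Socs2, which encodes a suppressor of cytokine signalling that limits growth hormone action, varied among mice of every group. Socs2 read 1850, 2594, 1419 and 4302 in B6. It read 536.1, 2337, 1772 and 754.7 in Pax3. The Apob signals were 823.7, 895.6, 839.5 and 1481. The B6 range overlapped both others. The Socs2 difference was -1.23 ± 0.514 in Apob minus B6 (limma adjusted p 0.34) and -1.01 ± 0.514 in Pax3 minus B6 (limma adjusted p 0.963). In Ct minus CBA it was -0.71 ± 0.514, and 0.15 without CBA array 4 and Ct array 3. Of the 6 Socs2 probe sets, 1 was below the filter, and the 5 others ran from -1.12 to 0.74 in Pax3 minus B6, so they did not share a sign. The only positive one, 0.74 ± 0.684, read 15.14 to 290.8 in B6. In Apob minus B6 all 5 were negative, from -1.23 to -0.26.

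Cish, which encodes another SOCS family inhibitor and holds the paired palindromes printed above, varied less within groups (SD 0.441 on the log2 scale) than Socs2 (0.796). Its 36 signals ran from 605.8 to 2019 with a median of 1073, and every neighbouring pair of groups in the order of levels overlapped. Its differences ran from -0.45 ± 0.296 in Pax3 minus B6 to 0.25 ± 0.296 in Lp-Het minus Lp-WT, and none passed.

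Igf1, which encodes the main endocrine product of growth hormone action in liver, was lowest in the Pax3 group. Igf1 read 14830, 17640, 8296 and 16540 there. Its B6 signals were 24730, 21630, 17180 and 27720. The Apob signals were 19550, 24480, 18830 and 23180. The Pax3 group did not overlap the next group in the order of levels, Lp-WT (19050 to 22200), but its highest array lay above the lowest of B6. The Igf1 difference of -0.71 ± 0.189 in Pax3 minus B6 ranked 13th of 13188 genes by p (unadjusted p 0.000711), and its limma adjusted p was 0.609. All 4 Igf1 probe sets fell on the same side, from -0.65 to -0.79. Without Pax3 array 3 or any other single array, the difference ran from -0.46 to -0.83.

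On the probe set that stands for Igf1, all Apob signals were above all Pax3 signals. The difference was 0.63 ± 0.189 (limma adjusted p 0.1). CBA array 4 and Ct array 3 are in neither group. With both out of the fit, the difference was the same, its SE, pooled over all groups, 0.173 and its limma adjusted p 0.0327. It was 0.45 ± 0.186 without Pax3 array 3 and Apob array 3 (limma adjusted p 0.458). The 3 other Igf1 probe sets gave 0.47 ± 0.208, 0.33 ± 0.344 and 0.62 ± 0.294, and on each of them Apob and Pax3 overlapped. In the Lp line all 4 Lp-Het signals of 24020 to 31060 were above all Lp-WT signals of 19050 to 22200. That difference was 0.41 ± 0.189 (limma adjusted p 0.67), in a comparison where 5.72% of all genes had groups that did not overlap. The other Igf1 probe sets gave 0.176, 0.412 and 0.595 in Lp, and the groups overlapped except on the last of these. In Ct minus CBA the Igf1 probe sets disagreed: the one that stands for the gene gave 0.056 ± 0.189, and the 3 others gave -0.40, -0.93 and -0.64.

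Igfals, which encodes the acid-labile subunit that holds IGF1 in its circulating complex, had its lowest mean in Pax3. The Pax3 signals were 1617, 2736, 1068 and 3255, and the B6 signals were 3219, 3960, 3435 and 4007. The groups overlapped by 1 Pax3 array. The difference was -0.87 ± 0.349 (limma adjusted p 0.819), and -0.58 without Pax3 array 3. In the other comparisons it ran from -0.45 to 0.42, and none passed.

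**Figure D2:**
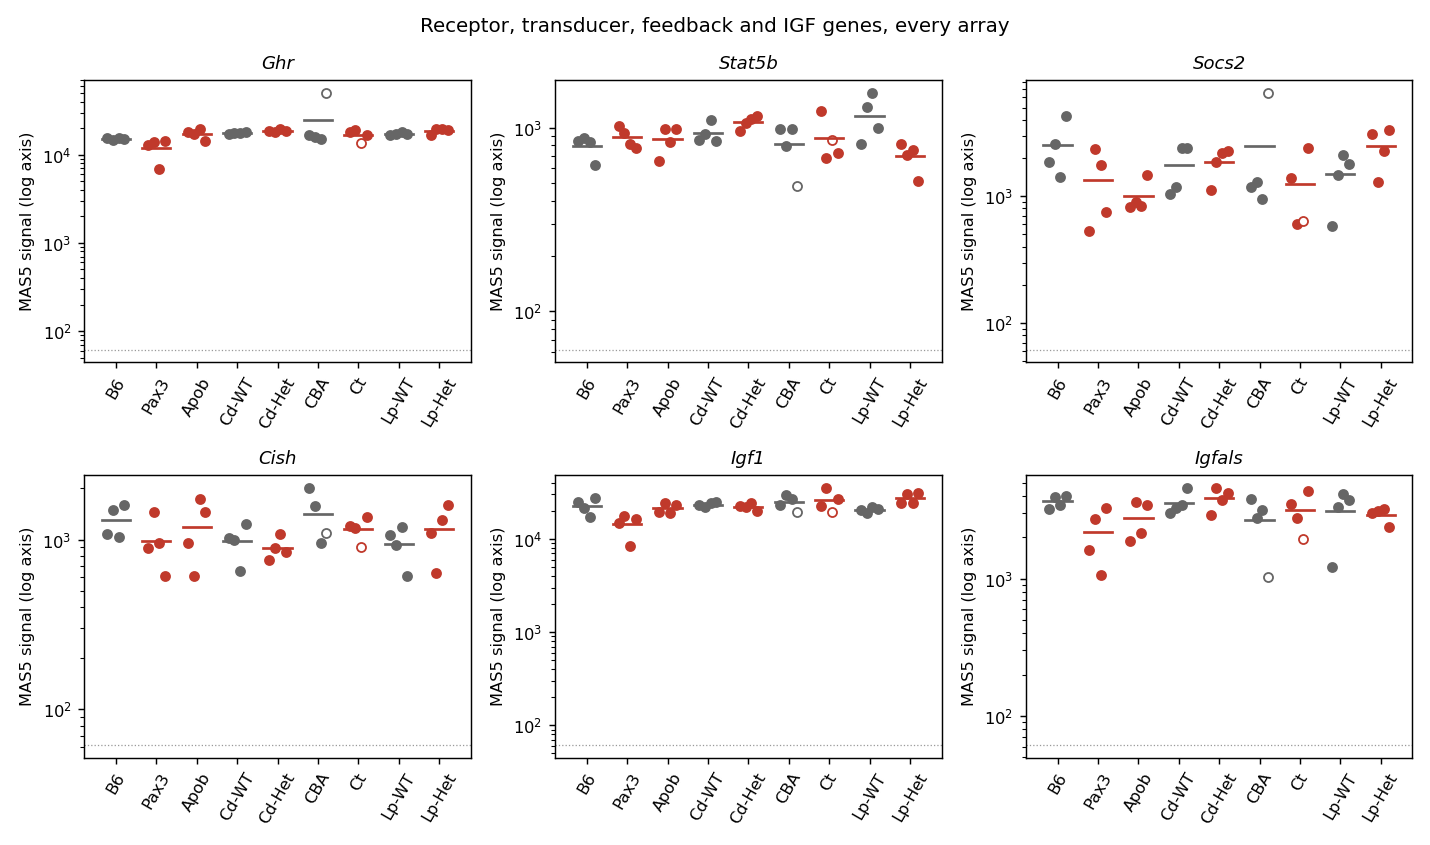
MAS5 signal (log axis) of Ghr, Stat5b, Socs2, Cish, Igf1 and Igfals on every array in 9 groups. Grey points are controls and red points mutants, lines are group means, open points are CBA array 4 and Ct array 3, and the dotted line is the filter at 61.7. CBA array 4 stands at 50600 for Ghr and 6559 for Socs2, and Pax3 array 3 at 8296 for Igf1.

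Taking the Pax3 line as a whole, 9 of the 10 genes had a lower mean log2 value than in B6, with a median of -0.74 against 0.01 over all genes tested. There were 8 of 10 without Pax3 array 3, with a median of -0.50. Hepatocyte markers moved with this tally: 5 of the 6 tested had negative differences (median -0.31, 3 of 6 with an unadjusted p below 0.05). Their array means were 14.88 to 15.19 against 15.15 to 15.44 in B6 on the log2 scale. Negative differences were also found for 7 of 8 Kupffer cell (median -0.129), 4 of 5 endothelial cell (-0.0562) and 3 of 4 cholangiocyte markers (-0.365). Those of stellate cells (4 of 6, median 0.388) and leukocytes (3 of 5, 0.116) were mostly positive. Pax3 array 3 had the lowest hepatocyte mean of the 36 arrays (14.88) and the highest mean of the 6 stellate cell markers (11.25, against 9.52 to 10.36 on the 35 others). Its mean of the 5 leukocyte markers was 8.51, against 7.13 to 7.75 in B6, and that of the 8 Kupffer cell markers 11.56, against 10.92 to 11.45. Without this array all 8 Kupffer cell markers (median -0.306), 4 of 6 stellate cell markers (-0.155) and 4 of 5 leukocyte markers (-0.298) were negative in Pax3 minus B6. The part of these markers in the Pax3 values was not tested. None of the 10 genes passed the threshold with limma, which called 0% of all genes in this comparison, and 3 of 10 had an unadjusted p below 0.05 against 702 of 13188 genes (5.32%). For 2 genes, Ghr and Hao2, all Pax3 arrays were below all B6 arrays on the probe set that stands for the gene. Over all genes, 5.38% had groups that did not overlap. In the Cd line none of the 10 genes passed with limma, none had an unadjusted p below 0.05 (275 genes, 2.09%, in all), and 0% of all genes were called. The median absolute log2 difference of the 10 genes in the Cd line was 0.13, the same as over all genes.

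Hsd3b5, a male-biased steroid dehydrogenase gene of liver, ran from well under the filter to 7895. The B6 signals were 468.9, 835.4, 309.6 and 653.8. The Pax3 signals were 97.06, 460.3, 9.082 and 184.3. The Apob signals were 880.1, 1630, 7895 and 4273. Every Apob array was above every B6 and every Pax3 array, and the Pax3 range reached into B6 by 1 array. Hsd3b5 was higher in Apob than in Pax3 by 4.25 ± 0.948 (limma adjusted p 0.0167). Pax3 array 3 read under both the filter and the offset, so this difference is poorly measured and its size depends on the offset. It was 4.55 with an offset of 8 and 3.78 with an offset of 64.

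Against their shared control, Hsd3b5 was 2.27 ± 0.948 in Apob minus B6 (limma adjusted p 0.342) and -1.99 ± 0.948 in Pax3 minus B6 (limma adjusted p 0.929). Neither passed. The latter was -1.28 without Pax3 array 3, which read 9.082 and so under the filter and the offset. Hsd3b5 belongs to a family of similar genes that lie side by side, and its probe set is not marked as shared between targets, but cross-hybridisation was not tested.

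Elovl3, a male-biased gene for a fatty acid elongase, was also higher in Apob than in Pax3. The Apob signals were 506.5, 247.6, 3352 and 396.8. The Pax3 signals were 254.2, 284.9, 68.74 and 68.87. The B6 signals were 252.3, 332.7, 206.7 and 287.8. The groups overlapped, and Apob array 3 stood far above the other arrays of the series. The difference was 2.03 ± 0.474 in Apob minus Pax3 (limma adjusted p 0.0207). It was 1.21 ± 0.474 in Apob minus B6 (limma adjusted p 0.292) and -0.82 ± 0.474 in Pax3 minus B6 (limma adjusted p 0.999). The first of these was 0.44 without Apob array 3, and the second -0.54 without Pax3 array 3.

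In the direct comparison of Apob with Pax3, then, 2 of the 10 genes were called higher and none lower, against 0.463% of all genes called higher and 1.18% called in all. On the probe set that stands for each gene, the groups did not overlap for 2 of the 10, Hsd3b5 and Igf1, against 11% of all genes. An unadjusted p below 0.05 was found for 5 of the 10, against 13% of all genes. Both calls rested on single arrays. Without Pax3 array 3, Hsd3b5 was 3.54 ± 0.986 with a limma adjusted p of 0.11 and Elovl3 was 1.76 ± 0.503 with a limma adjusted p of 0.114. Without Apob array 3, Hsd3b5 was 3.73 ± 1.01 (limma adjusted p 0.0916) and Elovl3 1.26 ± 0.376 (limma adjusted p 0.136). Without both, Hsd3b5 was 3.02 ± 1.04 (limma adjusted p 0.316) and Elovl3 0.98 ± 0.382 (limma adjusted p 0.422), and limma called 10 genes in all. Without Pax3 array 4, Elovl3 was 1.76 ± 0.504 (limma adjusted p 0.0833). With CBA array 4 and Ct array 3 left out of the fit, the differences were the same and the errors alone changed; 4 of the 10 genes were then called (Hsd3b5, Elovl3, Ghr and Igf1), against 3.69% of all genes.

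Cyp17a1, which encodes a steroid hydroxylase and lyase and is female-biased in mouse liver, took its lowest level in CBA. The CBA signals were 952.9, 527.2, 1006 and 655.9. The Ct signals were 1620, 2122, 2949 and 1711. All Ct arrays were above all CBA arrays, and no other group overlapped CBA. Cyp17a1 differed by 1.40 ± 0.425 in Ct minus CBA (limma adjusted p 0.0415). This was the single call among the 10 genes in a comparison where 6.65% of all genes were called and 6.92% had groups without overlap, and 2 of the 10 (Cyp17a1 and Hao2) had an unadjusted p below 0.05, against 24.1% of all genes. The difference was 1.16 ± 0.49 without CBA array 4 and Ct array 3, with a limma adjusted p of 0.267, and then 1.79% of all genes were called. It also lost the call without Ct array 2 (limma adjusted p 0.0822), Ct array 3 (0.134), CBA array 2 (0.0755) or CBA array 4 (0.11), each left out alone. In the same comparison all 8 Kupffer cell markers were positive, with a median of 1.42, and 5 of them were called higher; without CBA array 4 and Ct array 3, 7 were positive with a median of 0.33 and none was called. The 7 acute phase genes were all positive as well, with a median of 1.81, and 5 were called higher. Without CBA array 4 and Ct array 3, all 7 were still positive, with a median of 0.454, and none was called. The part of these markers in the Cyp17a1 difference was not tested. The Ct group came from a closed colony and its control was CBA/CaJ, so genotype and stock cannot be told apart in this comparison.

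The Apob signals for Cyp17a1 were 3687, 2531, 2079 and 2529. The B6 signals were 3402, 3828, 8552 and 7764. The groups overlapped by 1 B6 array. Cyp17a1 differed by -1.03 ± 0.425 in Apob minus B6 (limma adjusted p 0.334). The Pax3 signals of 11420, 5364, 1828 and 6423 spanned those of B6, and the difference was -0.065 ± 0.425. In Lp-Het minus Lp-WT it was 1.02 ± 0.425 (limma adjusted p 0.591), with overlapping groups.

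Hao2, a female-biased gene for a peroxisomal hydroxy acid oxidase, was low on most Apob arrays. The Apob signals were 1035, 3942, 240.3 and 984.4. The Pax3 signals were 2828, 2572, 2362 and 2446. The B6 signals were 5232, 5019, 4140 and 3397. The Pax3 arrays were even and all below B6, while Apob array 2 lay within the B6 range and the 3 other Apob arrays lay below every Pax3 array. The Hao2 difference was -2.10 ± 0.704 in Apob minus B6 (limma adjusted p 0.195) and -0.78 ± 0.704 in Pax3 minus B6 (limma adjusted p 0.999). Without Apob array 3 and Pax3 array 3 the Apob difference was -1.45 ± 0.721 (limma adjusted p 0.589). CBA array 4 and Ct array 3 are in neither group. With both out of the fit, the Apob difference was the same -2.10 with an SE of 0.407 and passed (limma adjusted p 0.00347). In this comparison 2.46% of all genes were then called. That SE is pooled over all groups, while the log2 SD of Hao2 was 1.6 in Apob and 0.284 in B6. The pass thus drew on the smaller spread of other groups.

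In the Ct group Hao2 read 4154, 6870, 113.1 and 7109, and Hsd3b5 read 1088, 3253, 6.827 and 1524. Ct array 3 was the low one in both genes, by -5.44 log2 units for Hao2 against the mean of the other Ct arrays. For Hsd3b5 it read under both the filter and the offset, so no size is given. On the same array the 7 acute phase genes had a mean log2 value of 15.9, against 10.7 to 13.4 on the 35 other arrays, and the 8 Kupffer cell markers one of 13.1, against 8.71 to 11.6. Means of the 5 leukocyte markers reached 11.03 in the Ct group, against 6.453 to 8.507 over all arrays of the other groups. The part of these markers in the low signals was not tested. The Hao2 difference in Ct minus CBA was -1.52 ± 0.704 (limma adjusted p 0.177), and 0.015 ± 0.469 without CBA array 4 and Ct array 3.

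In Apob minus B6 none of the 10 genes was called by limma, where 0.538% of all genes were called. At an unadjusted p below 0.05 there were 5 of 10 (Hsd3b5, Elovl3, Socs2, Cyp17a1 and Hao2), against 10.9% of all genes. For Hsd3b5 alone the groups did not overlap, against 9.39% of all genes. The median absolute log2 difference of the 10 genes was 0.74 there, against 0.20 over all genes. In the Lp line none was called, against 0.0303% of all genes, and 3 had an unadjusted p below 0.05 (Stat5b, Cyp17a1 and Igf1), against 7.07% of all genes.

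**Figure D3:**
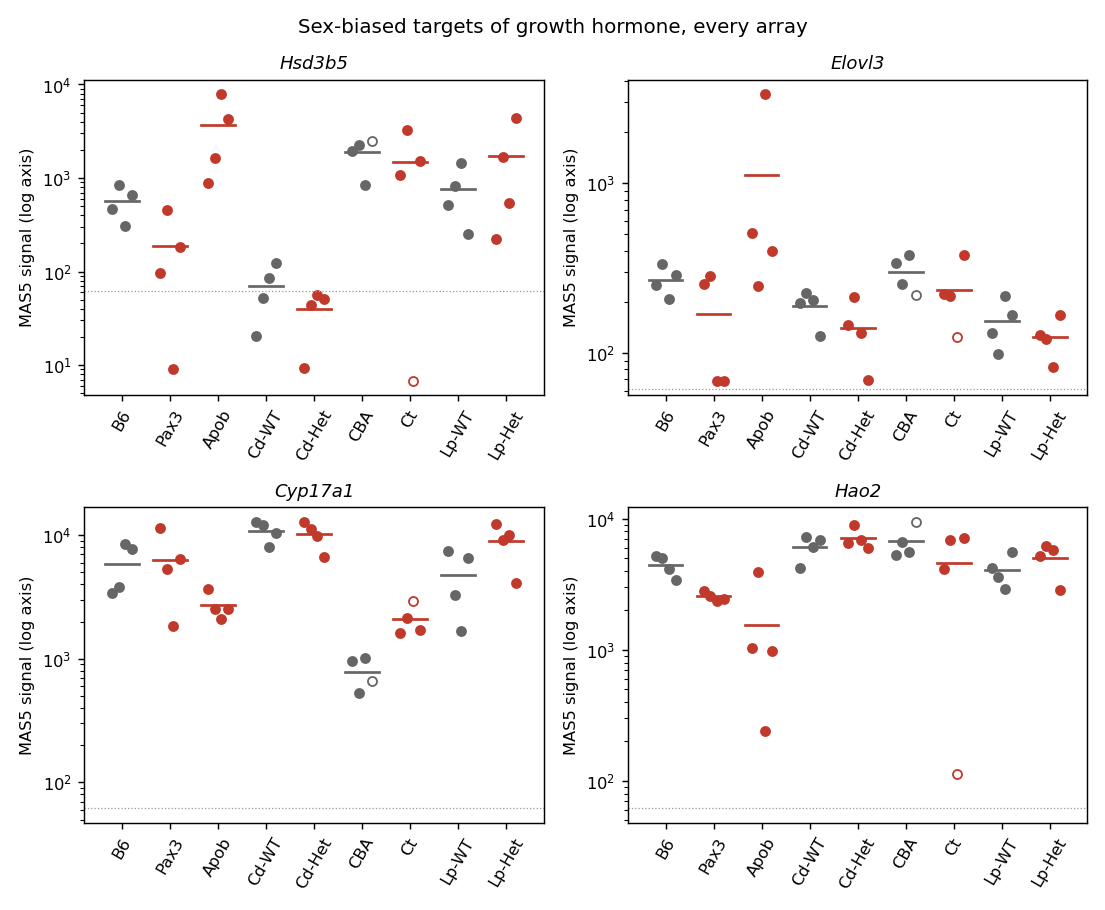
MAS5 signal (log axis) of the male-biased Hsd3b5 and Elovl3 and the female-biased Cyp17a1 and Hao2 on every array in 9 groups. Grey points are controls, red points mutants, lines group means, open points CBA array 4 and Ct array 3, and the dotted line the filter at 61.7. Apob array 3 is the highest array for Hsd3b5 (7895) and Elovl3 (3352), and Cyp17a1 is lowest in CBA (527.2 to 1006).

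The control stocks differed in 2 of the 10 genes by limma's moderated F test over the 4 control groups, against 10.7% of all genes. Cyp17a1 had an F of 28.3 (adjusted p 3.48e-07). Its mean signal was 785.4 ± 230.9 in CBA, 4759 ± 2734 in Lp-WT, 5886 ± 2648 in B6 and 10780 ± 2062 in Cd-WT (SD, n = 4 arrays each). Differences between pairs of stocks were computed after these levels had been seen. By these, CBA was below each other stock: B6 minus CBA was 2.80 ± 0.425 (limma adjusted p 2.47e-05), Cd-WT minus CBA 3.77 ± 0.425 (limma adjusted p 1.05e-07) and CBA minus Lp-WT -2.38 ± 0.425 (limma adjusted p 0.000383). Limma called 7.73%, 5.07% and 4.61% of all genes in these comparisons. Between the 3 other stocks Cyp17a1 was not called, where 3.89% (B6 minus Cd-WT), 2.08% (B6 minus Lp-WT) and 2.43% (Cd-WT minus Lp-WT) of all genes were.

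Hsd3b5 had an F of 7.43 among the stocks (limma adjusted p 0.011). The Cd-WT signals were 20.34, 51.93, 86.24 and 122.7, the CBA signals 1940, 2253, 832.8 and 2494, and the Lp-WT signals 518.2, 830.5, 1433 and 253.5. All Cd-WT arrays were below every array of the other stocks. Cd-WT minus CBA was -4.38 ± 0.948 (limma adjusted p 0.00354), and the differences of Cd-WT from B6 and Lp-WT did not pass. The Cd-Het signals were as low, at 9.378, 44.16, 56.75 and 50.44. Of the 8 arrays on which Hsd3b5 was under the filter signal, 6 belonged to the Cd strain, where MAS5 signals are noisy and a difference is poorly measured. Cd-WT array 1 and Cd-Het array 1 were under the offset as well, so the size of -4.38 depends on the offset. Without Cd-WT array 1 the F test of Hsd3b5 had a limma adjusted p of 0.0526.

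The 5 differences from control were set against each other by an F test too. None of the 10 genes passed, with limma adjusted p values of 0.0511 for Hsd3b5, 0.0616 for Igf1, 0.0695 for Cyp17a1 and 0.0814 for Elovl3, while 2.46% of all genes passed. At an unadjusted p below 0.05 there were 5 of the 10, against 17% of all genes. Without CBA array 4 and Ct array 3, 3 passed against 4.06% of all genes: Hsd3b5 (0.00576), Igf1 (0.0242) and Hao2 (0.0274).

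The rest of the pathway gave 1 call over the 36 arrays, in Apob minus Pax3, where 1.18% of all genes were called. Of 26 further genes of growth hormone signalling and the IGF axis, 24 were tested, and the gene called was Igfbp1, which encodes an IGF binding protein that insulin represses. It was 6485 ± 2237 in Apob and 20130 ± 5862 in Pax3 (SD, n = 4 arrays each), with all Apob arrays below (log2 difference -1.68 ± 0.426, limma adjusted p 0.0378). It was not called without Pax3 array 3 and Apob array 3. With CBA array 4 and Ct array 3 left out, Ptpn1, a tyrosine phosphatase gene, was called lower in Apob minus B6, and Ptpn1 and Igfbp1 in Apob minus Pax3. The gene with the smallest p in each other comparison did not pass. These were Igfbp4, also an IGF binding protein gene, in Pax3 minus B6 (-0.39 ± 0.116, limma adjusted p 0.702) and Igfbp1 in Apob minus B6 (-1.04 ± 0.426, 0.326) and in Ct minus CBA (1.34 ± 0.426, 0.0504). In the Cd line it was Lepr, the leptin receptor gene (1.10 ± 0.379, 1), and in the Lp line Onecut1, a hepatocyte transcription factor gene (1.60 ± 0.493, 0.372).

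Of 20 other male-biased liver genes, 12 were tested. In Apob minus Pax3, 4 of these were called higher and none lower, where 0.463% of all genes were called higher and 1.18% in all. All 12 had a positive difference, with a median of 0.92 against 0.03 over all genes. Slco1a1, an organic anion transporter gene, was 5155 ± 1892 in Apob and 545 ± 518 in Pax3 (SD, n = 4 arrays each), a log2 difference of 3.80 ± 0.734 (limma adjusted p 0.00639). Keg1, Nudt7 and Cyp7b1 (an oxysterol hydroxylase gene) followed, with differences of 1.83 (limma adjusted p 0.0111), 1.33 (0.0294) and 1.11 (0.0312). In Apob minus B6 all 12 were positive with a median of 0.56, against 0.02 over all genes, and none was called; the smallest p was that of Cyp7b1 (1.09 ± 0.275, limma adjusted p 0.0614). With CBA array 4 and Ct array 3 out of the fit, Cyp7b1 and C9 were called higher in Apob minus B6, and in Apob minus Pax3 C9 joined the 4 above. That fit called 2.46% and 3.69% of all genes in these comparisons. In Pax3 minus B6 all 12 were negative with a median of -0.20 and none was called; the smallest p was that of Slco1a1 (-2.53 ± 0.734, limma adjusted p 0.609). Both of these comparisons use the B6 arrays.

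The Cd line had no call among them (Susd4, -0.56 ± 0.362, limma adjusted p 1), nor had the Lp line (Cyp7b1, -0.38 ± 0.275, limma adjusted p 0.823). In Ct minus CBA, where 6.65% of all genes were called, Susd4 (-1.39, limma adjusted p 0.0188) and Keg1 (-1.42, 0.0218) were lower. C6, a complement gene, was higher (1.25, limma adjusted p 0.0355). None of Susd4, Keg1 and C6 was called without CBA array 4 and Ct array 3. Without Pax3 array 3 and Apob array 3, none of the 12 was called in Apob minus Pax3, and 11 were positive with a median of 0.82.

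Of 23 other female-biased liver genes, 17 were tested. In Apob minus B6, 3 fell and none rose, where 0.538% of all genes were called, and 15 were negative, with a median of -0.91 against 0.02 over all genes. With CBA array 4 and Ct array 3 out of the fit, 5 were called lower (Cyp3a16 and Slc22a26 besides), against 2.46% of all genes called. The 3 were Sult2a2, a sulfotransferase gene, at 401.5 ± 330.7 in Apob and 6672 ± 2247 in B6 (SD, n = 4 arrays each; -4.29 ± 0.717, limma adjusted p 0.00176), Slc22a27, a transporter gene (-1.90 ± 0.385, 0.0118), and Sult3a1 (-4.66 ± 1.12, 0.0416). In Apob minus Pax3, 3 were lower, where 1.18% of all genes were called, and 16 were negative, with a median of -1.09 against 0.03. These were Sult2a2 (-4.90, limma adjusted p 0.000256), Slc22a27 (-1.78, 0.0147) and Cyp2b10 (-1.41, 0.0147).

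None of the 17 was called in the other comparisons. The smallest p values there were those of Cyp2b10 in Pax3 minus B6 (0.82 ± 0.308, limma adjusted p 0.819), Cyp39a1 in the Cd line (0.53 ± 0.327, 1), Atp6v0d2 in Ct minus CBA (-0.78 ± 0.322, 0.124) and Fmo2 in the Lp line (1.23 ± 0.403, 0.43). Without Apob array 3 and Pax3 array 3, Sult2a2 alone was called in Apob minus B6, where 15 of 17 were negative with a median of -0.59, and in Apob minus Pax3, where 14 were negative with a median of -0.88.

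The plot of both lists by array shows where single mice lay. Apob array 3 had the highest mean of the male-biased genes (11.5) and the lowest of the female-biased genes (8.08). Pax3 array 3 had the lowest mean of the male-biased genes (9.49) and was low in the female-biased genes as well (9.46); it is also the array with the highest stellate cell and lowest hepatocyte means, given above, whose part here was not tested. The Apob arrays ran from 10.8 to 11.5 on the male-biased list, above all 4 B6 arrays (10.4 to 10.6). This level was not particular to Apob: the CBA arrays ran from 10.89 to 11.39 and the Ct arrays from 10.76 to 11.04. The highest Lp-Het array was at 11.08. On the female-biased list the Apob arrays ran from 8.08 to 10.4, below all 4 B6 arrays (10.5 to 10.8). The Lp-WT arrays (9.92 to 10.3) lay within that range. On the acute phase list, the Apob arrays (11.6 to 12.1) and the Pax3 arrays (11.2 to 12.0) overlapped B6 (11.1 to 11.7).

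**Figure D4:**
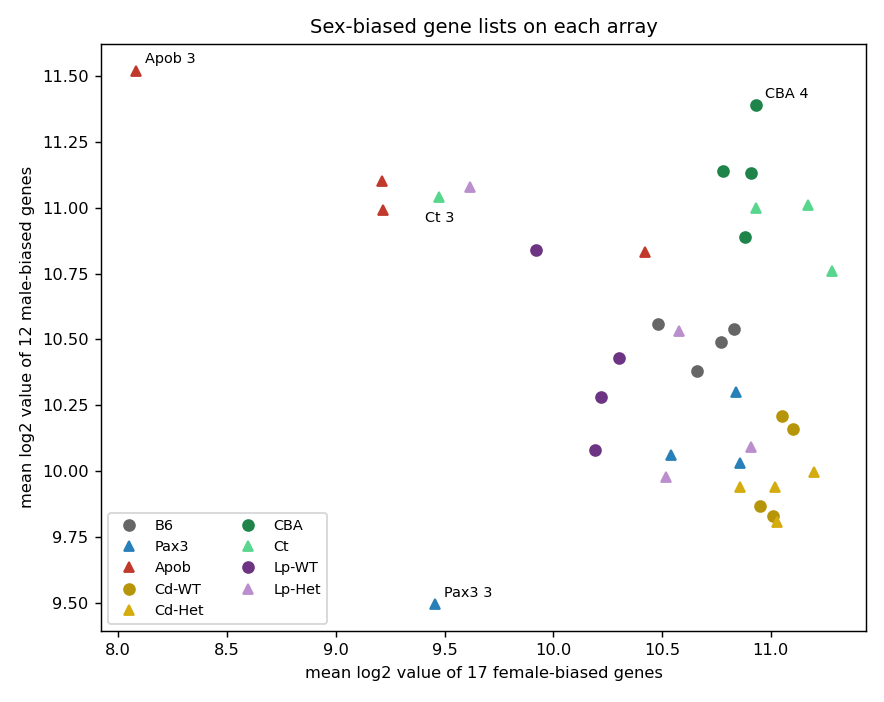
Mean log2 value of 12 male-biased genes (y axis) against 17 female-biased genes (x axis), 1 point per array, coloured by group (circles controls, triangles mutants). Apob array 3 lies at the upper left (8.08, 11.5) and Pax3 array 3 at the lower left (9.46, 9.49).

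Across arrays, 6 pairs of the 10 genes were examined after removing each group's mean. Over the 36 arrays none passed Benjamini-Hochberg adjustment for the 6 pairs by a permutation test within groups (100000 resamples, two-sided). The growth factor genes Igf1 and Igfals had the highest Pearson's r, 0.487 (permutation p 0.0122, adjusted 0.0732), with a Spearman's rho of 0.382 (permutation p 0.0419, adjusted 0.135), and r was 0.45 without the 2 most extreme Igf1 arrays. Over 34 arrays, without CBA array 4 and Ct array 3, that pair had an r of 0.359 (permutation p 0.12) and a rho of 0.211 (permutation p 0.298), and r was 0.163 without Pax3 array 3 and B6 array 3 as well, so the value rested on those arrays. For the feedback genes Socs2 and Cish, r was 0.271 (permutation p 0.16, adjusted 0.32), rho was 0.376 (permutation p 0.0451, adjusted 0.135), and r was 0.43 without the 2 most extreme arrays. Over the 34 arrays r was 0.394 (permutation p 0.0298, adjusted 0.144), and rho was 0.483 and passed (permutation p 0.00753, adjusted 0.0452).

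For the male-biased Hsd3b5 and Elovl3, r was 0.412 (permutation p 0.035, adjusted 0.105), rho was 0.285 (permutation p 0.153, adjusted 0.306), and r was 0.32 without Pax3 array 3 and Ct array 3. For Hsd3b5 and Hao2, of opposite sex bias, r was 0.416 (permutation p 0.257, adjusted 0.386) and rho 0.12 (permutation p 0.547, adjusted 0.821). Without Pax3 array 3 and Ct array 3 that r was -0.03, so the positive value rested on those arrays. For Elovl3 and Hao2, r was -0.151 (permutation p 0.554, adjusted 0.665) and rho -0.04 (permutation p 0.825, adjusted 0.834), with an r of 0.291 without Apob arrays 2 and 3. Over the 34 arrays that r was -0.592 (permutation p 0.116, adjusted 0.144), and 0.057 with Apob arrays 2 and 3 also out. For Hao2 and Cyp17a1, r was -0.03 (permutation p 0.804, adjusted 0.804) and rho 0.04 (permutation p 0.834, adjusted 0.834), with an r of 0.077 without Apob array 3 and Ct array 3.

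**Figure D5:**
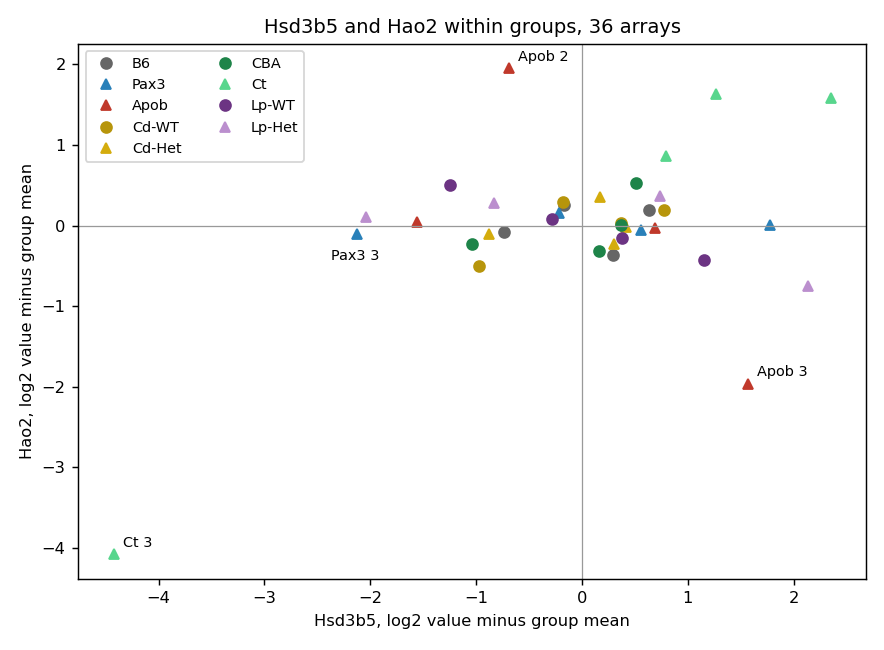
Log2 value minus group mean of Hao2 (y axis) against Hsd3b5 (x axis) on 36 arrays, coloured by group (circles controls, triangles mutants). Ct array 3 lies alone at the lower left, and r is 0.416 with all arrays and -0.03 without it and Pax3 array 3.

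The genes most like each of the 10 over the 36 arrays, again with group means removed, are given as a description, since the arrays share their scaling and RNA quality. Hsd3b5 was most like Slco1a1, which is male-biased (r 0.804, and 0.857 over 34 arrays without CBA array 4 and Ct array 3), and Sult2a8 (0.783). Hao2 was most like Slc22a27 (0.817, and 0.824 over 34 arrays) and Acot3 (0.816, and 0.55 over 34 arrays), both on the female-biased list. Ghr was most like Aldh8a1 (0.922) and Pcnp (0.921), which came to 0.724 and 0.731 over 34 arrays. Igf1 was most like Slc22a30 (0.827) and Hacl1 (0.824), and Igfals most like Sdr42e1 (0.847) and Mlxipl (0.834). Stat5b was most like Erbb3 (0.85) and Gpld1 (0.839), and Socs2 most like Ugcg (0.82) and Plcxd2 (0.79). The closest genes were less alike for Cyp17a1 (Lhpp 0.684, Rnd2 0.629), Cish (Phlda1 0.658, Foxq1 0.617) and Elovl3 (Ttc39c 0.612, Mtbp 0.608).

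By gene order in RefSeq, 6 of the 10 genes share a chromosome with another of them. Hsd3b5 and Hao2 lie on chromosome 3 with 4 protein-coding genes between them, Elovl3 and Cyp17a1 on chromosome 19 with 12 between, and Igf1 and Socs2 on chromosome 10 with 47 between.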

How the data were processed

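Liver RNA of 36 female mice was hybridised to Affymetrix arrays. The deposited values are linear signal intensity from MAS5, per the submitters' processing notes, which give no version; each array had been scaled to a trimmed mean of 500 (2% left out at each end), by a check of the values. Such signals are noisy near background and carry no quantile normalization, and the depth of an array is fixed by its probes, so the number of arrays limits the precision. Signals were analysed as log2(signal + 23.068), the offset being their 20th percentile. Probe sets passed at a mean log2 above 6.4057 (the 40th percentile), and the highest mean stood for a gene. A linear model with a mean for each group used the 36 arrays together (limma 3.58.1, R 4.3.3, empirical Bayes with an intensity trend, two-sided, Benjamini-Hochberg over 13188 genes); the steps were tested on simulated data. The 6 two-group comparisons and 2 F tests share this fit. Correlations used Python 3.11.15 with scipy 1.17.1.

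The labels call the 4 arrays of a group biological replicates, and groups come from the labels. The 10 genes and all lists were chosen with earlier results of these data known. Named by rule were the 10 genes, up to 4 called genes of each list per comparison (otherwise the gene with the smallest p), and the 2 genes most like each of the 10. Differences between pairs of control stocks, and the fit without Pax3 array 3 and Apob array 3, were added after the data had been seen. Alternatives covered normalization, offset, filter, variance trend, probe sets, replicate block, arrays left out and the arrays in the fit. Promoter sequences are RefSeq's (GRCm38.p6); those of Socs2, Elovl3 and Cyp17a1 were not analysed here. Coordinates of genes are not given, since the genome build of the array annotation is not given in the sources used here.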

Additional observations from a re-analysis of the deposited data

Results flagged for a closer look

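In groups of 4 arrays, a value was singled out where the highest or lowest array lay apart from the other 3 by more of the group's whole range than Dixon's criterion allows. Of 90 groups tested over the 10 genes, 6 held such an array, and chance gives about 1 in 20. Both values on CBA array 4 belong to the array whose GAPDH 3′/5′ ratio was 52.5: Ghr read 50600 there, against 15010 to 16720 on the other CBA arrays, and Socs2 read 6559, against 948.4 to 1296. A second Socs2 probe set read 960.8 on that array, and the other Ghr probe sets read 21640 and 781.6. Elovl3 read 3352 on Apob array 3, against 247.6 to 506.5 on the other Apob arrays. Socs2 read 1481 on Apob array 4, against 823.7 to 895.6. Stat5b read 629 on B6 array 4, against 839.4 to 875.4. Ghr read 16810 on Lp-Het array 1, against 19220 to 19470.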

How the results depend on the processing

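Of 964 recomputed values of single genes outside the fits with 1 array left out, 929 kept direction and side of the threshold, 11 lost and 11 gained the call, and 13 changed sign. The 929 say little of stability, since most values had no call to lose. The main fit called 1 gene in Ct minus CBA, 2 in Apob minus Pax3 and 2 among controls. An F value cannot change sign, and leaving out an array cannot move a difference between other groups. The count of called genes in Ct minus CBA was 0 under quantile normalization, median centring, no filter, all probe sets, and the 2 groups alone (38 genes called in all). In Apob minus Pax3 it was 1 with the replicate block and with the 2 groups alone, and 0 without Pax3 array 3 and Apob array 3 (10 genes in all). Among line effects it was 1 under quantile normalization, an offset of 64 and the filter at the 60th percentile. Without CBA array 4 and Ct array 3 the counts were 1 in Apob minus B6 (324 genes in all), 0 in Ct minus CBA (236), 4 in Apob minus Pax3 (486) and 3 among line effects (536), and 28 genes were called in all in the Lp line. Over all genes, the 71 calls of Apob minus B6 became 40 under median centring, 215 over all probe sets, 184 with the 2 groups alone and 30 without Pax3 array 3 and Apob array 3. The 155 of Apob minus Pax3 became 488 over all probe sets, the 325 among line effects 215 under median centring, 618 over all probe sets and 174 without Pax3 array 3 and Apob array 3, the 1417 among controls 2607 over all probe sets, the 4 of Lp 9 under quantile normalization and 7 with the 60th percentile filter, and the 0 of Cd 1 over all probe sets.

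Same-numbered arrays were not taken as pairs, since in no line did every pair exceed an r of 0.1. Over all lines, 10 of 20 mutant arrays correlated best with their own number among the 4 arrays of their control. Of the 20 pairs, 4 exceeded an r of 0.1 (-0.141 to 0.203). In Ct and CBA, 3 of 4 did (0.203, 0.201 and 0.107, each best with its own number), a hint from the data and not from the design, and with the block the count there was 1, Cyp17a1. With the replicate block the count was 1 among controls (231 genes in all) and 2 among line effects (Hsd3b5 and Igf1). Elovl3 in Apob minus Pax3 then had a limma adjusted p of 0.0622. The F test of Hsd3b5 among controls had one of 0.0941, so both lost the call.

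With single arrays left out, the counts ran from 0 to 1 in Ct minus CBA, 0 to 2 in Apob minus Pax3, 1 to 2 among controls and 0 to 3 among line effects, and stayed at 0 elsewhere. Over all genes the calls then ran from 24 to 81 in Apob minus B6, 363 to 1438 in Ct minus CBA, 0 to 9 in Lp, 64 to 146 in Apob minus Pax3, 1114 to 1857 among controls and 187 to 486 among line effects. Signs changed within these ranges: Cyp17a1 -0.44 to 0.43 (Pax3) and -0.24 to 0.085 (Cd); Socs2 -0.073 to 0.36 (Cd) and -0.57 to 0.12 (Apob minus Pax3); Cish -0.28 to 0.020 (Cd) and -0.43 to 0.068 (Apob); Igf1 -0.20 to 0.030 (Apob) and -0.10 to 0.18 (Ct). Further ranges were Stat5b -0.12 to 0.075 (Apob minus Pax3) and -0.10 to 0.23 (Ct), Ghr -0.50 to 0.086, Igfals -0.090 to 0.53 and Hsd3b5 -2.24 to 0.014 (Ct), and Igfals -0.35 to 0.23 and Hsd3b5 -0.094 to 1.30 (Lp).

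Other changes of sign were, under quantile normalization, Igf1 -0.082 (Ct), Ghr -0.021 (Lp) and Stat5b 0.025 (Apob minus Pax3), and, without probe sets of shared targets, Socs2 -0.016 (Cd), Igf1 -0.40 (Ct) and Socs2 0.049 (Apob minus Pax3). Without CBA array 4 and Ct array 3, the Ct differences were 0.18 for Ghr, 0.15 for Socs2, -0.11 for Stat5b, 0.19 for Hsd3b5 and 0.015 for Hao2. Without Pax3 array 3 and Apob array 3, Cyp17a1 was 0.43 (Pax3) and Socs2 0.063 (Apob minus Pax3). Among pairs, 1 passed under quantile normalization and 1 under median centring (Igf1 with Igfals, r 0.738 and 0.542), and Socs2 with Cish passed by rho (0.483) without CBA array 4 and Ct array 3; Hao2 with Cyp17a1 gave 0.062 under median centring, and without CBA array 4 and Ct array 3 it gave 0.222 and Hsd3b5 with Hao2 -0.328. The cause was not tested.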
